A study of Mus musculus with 8 samples.

Results

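The genes of the insulin-like growth factor (IGF) receptors and IGF-binding proteins (IGFBPs) were followed in mouse keratinocytes (KCs), the epithelial cells of the epidermis, cultured for 1 week or for 3 weeks. The 9 members are Igf1, Igf1r, Insr, Igfbp2, Igfbp3, Igfbp4, Igfbp5, Igfbp6 and Igfbp7, and each was taken by its gene name from the 41457 genes listed in every sample. The KCs came from the tails of adult wildtype C57BL/6 mice (C57BL/6J in the study's text), were left untreated and were kept in serum-free KC medium with little calcium, and by their labels the groups differed in the time in culture alone. Each group held 4 samples, labelled replicates 1 to 4, whose poly(A) RNA was sequenced. The study describes the replicates as independent batches of KCs, with the same batches cultured for either time, but does not say which sample came from which batch or how many animals a batch held. The p-values measure the spread between these samples.

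IGF1 and IGF2 are secreted growth factors that signal through the IGF1 receptor, a tyrosine kinase at the cell surface, and through the closely related insulin receptor. IGFBPs are secreted proteins that hold IGFs in the extracellular space and so limit or deliver them to the receptor, until proteases cut the binding protein and free the ligand. In skin, IGF1 is mainly known as a product of dermal fibroblasts that acts on the KCs above them, which carry the receptor.

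Of the 9 members, Igfbp7 rose and Igfbp4 fell between 1 and 3 weeks in a fit without pairing. The other 5 members with enough reads for a test did not pass the threshold. With the replicate number as a block, Igfbp7 still passed (adjusted p = 0.0393, edgeR). In that fit Igfbp4 did not pass (0.0663) and Igfbp2 did, as lower (0.0338). Igfbp7, a secreted protein that binds IGFs only weakly and also binds to collagen and other matrix components, was the most abundant member at both times, at 119 ± 28.8 RPKM after 1 week and 224 ± 126 RPKM after 3 weeks (SD, n = 4 per group). Igfbp4, a secreted inhibitor of IGF action, stood at 1.42 ± 0.355 RPKM after 1 week and 0.583 ± 0.248 RPKM after 3 weeks. RPKM values, deposited by the authors, divide a gene's exon reads by its exon length and by the depth of the library. Igf1 and Igfbp6 had too few reads for the test across all genes. In edgeR's quasi-likelihood test 2 of the 7 tested members thus passed an adjusted p-value of 0.05, against 32.8% of the 12590 tested genes. In the rising direction it was 1 member, against 15.7% of all tested genes, and in the falling direction 1 member, against 17.0%.

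The samples held between 13896807 and 20026084 exon reads at 1 week and between 14096649 and 18127283 at 3 weeks. Over all tested genes the log2 fold change had a median of 0.03 in edgeR, which scales by TMM, and of -0.16 on the log2(RPKM + 0.1) scale, so RPKM values read slightly lower at 3 weeks. In limma on that scale 1313 genes were higher and 3089 lower, while edgeR gave 1981 higher and 2146 lower. In 3 weeks replicates 3 and 4 the deviation from the group moved with exon length. Among genes with at least 10000 bases of exon the median deviation was -0.62 (log2) in replicate 3 and 0.46 in replicate 4, and among genes with at most 2000 bases it was 0.49 and -0.35. The exon lengths of Igf1r (16791 bases) and Insr (13746 bases) lie in the long class, and those of Igfbp7 (1209), Igfbp2 (1847) and Igfbp6 (1112) in the short class. Values without these samples are therefore given beside the results for the tested genes among them, which leaves out Igfbp6.

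All 8 KC markers were detected, with summed RPKM of 13331 to 15666 at 1 week and 8118 to 9627 at 3 weeks, and 2 of them fell, Krt5 by 1.32 (adjusted p = 0.00103, edgeR) and Itga6 by 0.75 (adjusted p = 0.0391) on the log2 scale. Fibroblast markers summed to 4.00 to 6.98 RPKM at 1 week and 2.84 to 6.14 RPKM at 3 weeks, and 1 of their 8 genes, Pdgfrb, passed the test, in the falling direction. The 5 endothelial markers summed to less than 1 RPKM in every sample. Of 6 immune markers, Cd207 and Trdc were listed at 0 in every sample, and the list summed to 1.22 to 4.04 RPKM at 1 week and 1.46 to 3.66 RPKM at 3 weeks. Smooth muscle and pericyte markers summed to 140 to 367 RPKM at 1 week and 1125 to 2721 RPKM at 3 weeks, and both of the 2 tested genes of their 5, Acta2 and Cnn1, rose. Almost all of that sum was Acta2, while Des and Rgs5 were each under 1 RPKM in every sample and Myh11 had a mean of 0.778 RPKM at 3 weeks. In bulk RNA, fewer cells of a type and less RNA per cell cannot be told apart.

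**Figure D1:**
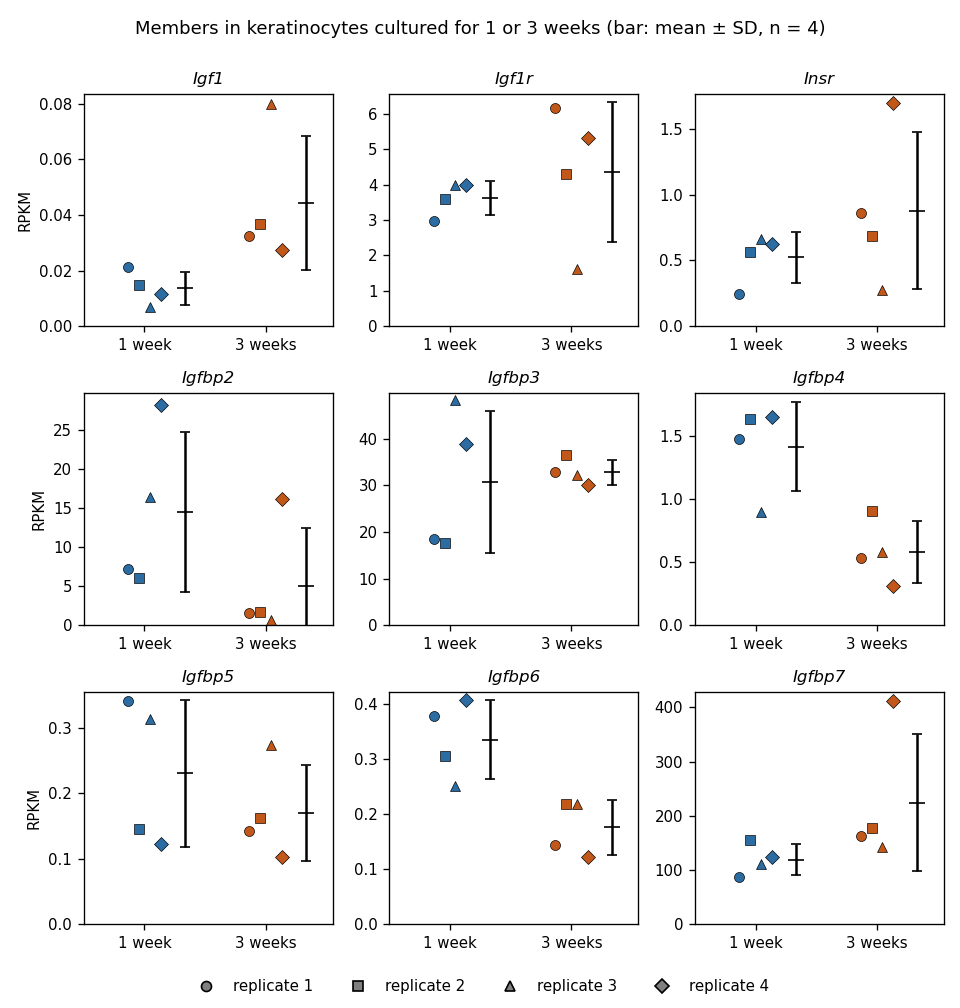
RPKM of the 9 members in each sample, with 1 panel per gene, a linear axis that starts at 0 and its own scale, 1 symbol per replicate number, and the mean ± SD of each group beside the points (n = 4; the bar of Igfbp2 at 3 weeks is cut at 0). Igfbp7 replicate 4 at 3 weeks lies at 412 RPKM and the other 3 samples of its group between 143 and 177, and the points of Igf1 and Igfbp6 are separated between the times but rest on few reads.

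Igfbp7 (ENSMUSG00000036256, chromosome 5, 77349240 to 77408041 of GRCm38, minus strand) reached 86.2, 155, 111 and 123 RPKM in 1 week replicates 1 to 4. In 3 weeks replicates 1 to 4 it reached 163, 177, 143 and 412 RPKM. The groups overlapped in RPKM, because 1 week replicate 2 lay above 3 weeks replicate 3. They did not overlap in CPM after TMM normalization, which corrects for library composition and ranged from 104 to 181 at 1 week and from 210 to 522 at 3 weeks. The share of all tested genes without overlap was counted in RPKM only, where it was 37.0% in either direction. The log2 fold change was 1.06 (standard error 0.32, adjusted p = 0.0339, edgeR), a 2.09-fold rise. Without 3 weeks replicate 4, by far the highest sample, the log2 fold change was 0.62 and the adjusted p-value 0.0247, so the direction and the call did not rest on it while the size did. Without replicate 3 the values were 1.18 and 0.0276. The call was lost without 1 week replicate 1 (adjusted p = 0.105), replicate 3 (0.0818) or replicate 4 (0.0740), and in limma on log2(RPKM + 0.1) (0.0909). The sums of the smooth muscle and pericyte markers, almost all Acta2, were also higher after 3 weeks, with the lowest of that group, 1125 RPKM, in replicate 4. Within that list Cnn1 and Myh11 also had higher means after 3 weeks. Des (0.132 RPKM at 1 week and 0.0851 at 3 weeks) and Rgs5 (0.0614 and 0.0402) had lower ones. The part of cells with such markers in the level of Igfbp7 was not tested.

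Igfbp4 (ENSMUSG00000017493, chromosome 11, 99041244 to 99054392, plus strand) reached 1.47, 1.64, 0.899 and 1.66 RPKM in 1 week replicates 1 to 4. In 3 weeks replicates 1 to 4 it reached 0.535, 0.909, 0.579 and 0.308 RPKM. Only 1 week replicate 3 fell within the range of the 3 weeks samples, where it lay just under replicate 2. The log2 fold change was -1.11 (standard error 0.34, adjusted p = 0.0343, edgeR), a 2.16-fold fall. It rested on 459 exon reads at 1 week and 172 at 3 weeks over 4 samples each. With the replicate number as a block the adjusted p-value was 0.0663 (edgeR), above the threshold. The adjusted p-value rose above the threshold without 1 week replicate 1 (0.0670), replicate 2 (0.0797) or replicate 4 (0.0849) and without 3 weeks replicate 1 (0.0863), while the log2 fold change stayed between -1.38 and -0.90 over the omissions of single samples.

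The bases before the transcription start of these 2 genes are shown because they are the members that passed the test, in opposite directions. The sequences are the 250 bases upstream of the RefSeq start (GRCm38.p6), at chr5:77408046-77408295 on the minus strand for Igfbp7 and chr11:99040994-99041243 on the plus strand for Igfbp4, read 5′ to 3′ along the gene. Capitals mark matches to a GC box (GGGCGG or CCGCCC) or a TATA box (TATAAA or TTTATA).
Igfbp7: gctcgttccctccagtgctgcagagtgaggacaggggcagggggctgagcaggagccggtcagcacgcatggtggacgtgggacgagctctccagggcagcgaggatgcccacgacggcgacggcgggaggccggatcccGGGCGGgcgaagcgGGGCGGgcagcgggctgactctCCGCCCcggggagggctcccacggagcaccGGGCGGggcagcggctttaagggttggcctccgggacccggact
Igfbp4: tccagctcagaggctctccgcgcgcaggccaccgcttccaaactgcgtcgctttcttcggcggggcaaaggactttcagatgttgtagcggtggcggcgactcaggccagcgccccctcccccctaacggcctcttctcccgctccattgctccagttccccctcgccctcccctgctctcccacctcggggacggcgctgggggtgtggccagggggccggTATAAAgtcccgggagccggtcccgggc
The Igfbp7 stretch held 4 GC boxes and no TATA box, and the Igfbp4 stretch held no GC box and 1 TATA box, whose first base lies 28 bases before the start. Of 32851 RefSeq promoters of the same length, 32.7% held a GC box and 12.4% a TATA box. The G and C content was 74.0% for Igfbp7 and 69.2% for Igfbp4, against a median of 52.4% over all promoters. Neither stretch held an AP-1 (TGANTCA), FOXO (TGTTTAC) or E2F (TTTGGCGC) motif on either strand, motifs found in 6.75%, 3.17% and 0.417% of all promoters. These matches describe letters in this window and no binding was measured. A promoter entry was matched for 8 of the 9 members.

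Among the receptors, Igf1r and Insr had higher means after 3 weeks, but neither passed the test. Igf1r (ENSMUSG00000005533, chromosome 7, 67952827 to 68233668, plus strand), the receptor for IGF1 and IGF2, reached 2.96, 3.59, 3.99 and 3.98 RPKM in 1 week replicates 1 to 4 and 6.18, 4.30, 1.61 and 5.32 RPKM in 3 weeks replicates 1 to 4. After 3 weeks, replicates 1, 2 and 4 lay above every 1 week sample, and replicate 3 lay below all of them. The log2 fold change was 0.40 (standard error 0.32, adjusted p = 0.365, edgeR). Without 3 weeks replicate 3 it was 0.63 with an adjusted p-value of 0.0173, without replicate 4 it was 0.30 with an adjusted p-value of 0.523, and with a correction for exon length over all samples it was 0.14 with an adjusted p-value of 0.547.

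Insr (ENSMUSG00000005534, chromosome 8, 3122061 to 3279617, minus strand), the insulin receptor, reached 0.241, 0.562, 0.664 and 0.623 RPKM in 1 week replicates 1 to 4 and 0.863, 0.682, 0.275 and 1.69 RPKM in 3 weeks replicates 1 to 4. Here too replicate 3 was the lowest 3 weeks sample, within the 1 week range, and the other 3 lay above every 1 week sample. The log2 fold change was 0.88 (standard error 0.48, adjusted p = 0.190, edgeR). It was 1.15 without 3 weeks replicate 3 (adjusted p = 0.0561), 0.38 without replicate 4 (adjusted p = 0.504) and 0.64 with the correction for exon length (adjusted p = 0.153).

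The ratio of Igf1r to Insr within a sample, taken per exon length from RPKM, was 12.3, 6.39, 6.01 and 6.40 in 1 week replicates 1 to 4 and 7.17, 6.30, 5.86 and 3.14 in 3 weeks replicates 1 to 4. Igf1r was thus the more abundant receptor transcript in all 8 samples, and the ranges of the ratio overlapped between the times. The means were 7.78 ± 3.03 and 5.62 ± 1.74 (SD, n = 4). Reads on introns made up 3.33% of the reads of Igf1r and 8.29% of those of Insr. In 3 weeks replicate 3 the intron reads of Igf1r (59) and Insr (30) were the highest of the 8 samples, and their exon reads (444 and 62) were the lowest.

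Igf1 (ENSMUSG00000020053, chromosome 10, 87858265 to 87937042, plus strand), the ligand, was close to the limit of detection. It had 4, 3, 1 and 2 exon reads in 1 week replicates 1 to 4 and 6, 6, 13 and 4 in 3 weeks replicates 1 to 4. These correspond to 0.0212, 0.0147, 0.00703 and 0.0114 RPKM and to 0.0325, 0.0369, 0.0799 and 0.0275 RPKM, where 3 reads equal 0.0147 to 0.0211 RPKM. In RPKM every 3 weeks sample lay above every 1 week sample, as was the case in either direction for 37.0% of all tested genes. In reads 1 week replicate 1 and 3 weeks replicate 4 were equal, at 4 each. The summed reads were 10 at 1 week and 29 at 3 weeks, a rate ratio of 3.14 (exact 95% interval 1.49 to 7.22, counting error only). An exact permutation test (two-sided) of the RPKM means gave p = 0.0286, the smallest value that 4 against 4 samples allow, and edgeR without a filter on low counts gave an adjusted p-value of 0.0714. Even so, Igf1 remained under 0.1 RPKM in every sample, below all other members.

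Igfbp3 (ENSMUSG00000020427, chromosome 11, 7206086 to 7213923, minus strand), the main carrier of IGFs in blood, was the next most abundant member after Igfbp7. It reached 18.4, 17.6, 48.2 and 39.0 RPKM in 1 week replicates 1 to 4 and 32.8, 36.4, 32.2 and 30.0 RPKM in 3 weeks replicates 1 to 4. The 1 week samples fell into a lower and a higher pair, and all 3 weeks samples lay between the pairs. The log2 fold change was 0.26 (standard error 0.31, adjusted p = 0.562, edgeR).

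Igfbp2 (ENSMUSG00000039323, chromosome 1, 72824503 to 72852474, plus strand), a binding protein with preference for IGF2, reached 7.17, 6.10, 16.5 and 28.3 RPKM in 1 week replicates 1 to 4. In 3 weeks replicates 1 to 4 it reached 1.57, 1.65, 0.692 and 16.2 RPKM. Replicates 1 to 3 at 3 weeks lay below every 1 week sample, whereas replicate 4 lay just under 1 week replicate 3. The log2 fold change was -1.42 (standard error 0.92, adjusted p = 0.268, edgeR), and without 3 weeks replicate 4 it was -3.30 (standard error 0.62, adjusted p = 0.00454). Without 3 weeks replicate 3 it was -1.08 (adjusted p = 0.378), and with replicates 3 and 4 both left out it was -3.04 (adjusted p = 0.0157). The call also depended on the model, since Igfbp2 passed with all 8 samples and the replicate number as a block (-2.09, adjusted p = 0.0338). No source used here says whether equal replicate numbers mark a shared batch.

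In the 1 week samples with high Igfbp2 and Igfbp3, replicates 3 and 4, the 5 melanocyte markers summed to 15.4 and 20.9 RPKM, against 4.76 and 3.18 RPKM in replicates 1 and 2. At 3 weeks the sums were 1.26, 5.50, 3.09 and 3.10 RPKM in replicates 1 to 4, and replicate 4, with high Igfbp2, did not stand out. Tyr, a defining melanocyte enzyme, was under 1 RPKM in every sample, and 1 of the 4 tested melanocyte markers, Pmel, fell. The part of these cells in the levels of Igfbp2 and Igfbp3 was not tested.

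Igfbp5 (ENSMUSG00000026185, chromosome 1, 72857932 to 72874884, minus strand), a binding protein that also attaches to extracellular matrix, lies 5457 bases from Igfbp2 on the opposite strand but was expressed far lower. It reached 0.341, 0.145, 0.313 and 0.123 RPKM in 1 week replicates 1 to 4 and 0.143, 0.162, 0.274 and 0.102 RPKM in 3 weeks replicates 1 to 4. The groups overlapped over most of their range, and the log2 fold change was -0.24 (standard error 0.47, adjusted p = 0.725, edgeR). Igfbp6 (ENSMUSG00000023046, chromosome 15, 102144362 to 102149511, plus strand), a binding protein that prefers IGF2, had 8, 7, 4 and 8 exon reads in 1 week replicates 1 to 4 and 3, 4, 4 and 2 in 3 weeks replicates 1 to 4. Its RPKM was 0.378, 0.306, 0.251 and 0.408 at 1 week and 0.145, 0.219, 0.219 and 0.122 at 3 weeks. The groups did not overlap in RPKM, as was the case in either direction for 37.0% of all tested genes. In reads they met, since 1 week replicate 3 and 3 weeks replicates 2 and 3 had 4 each. The separation in RPKM thus rested on the scaling by depth. The summed reads, 27 and 13, gave a rate ratio of 0.521 (exact 95% interval 0.247 to 1.05, counting error only). The same exact permutation test gave p = 0.0286, again the smallest possible, and edgeR without a filter gave a log2 fold change of -0.81 with an adjusted p-value of 0.329.

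**Figure D2:**
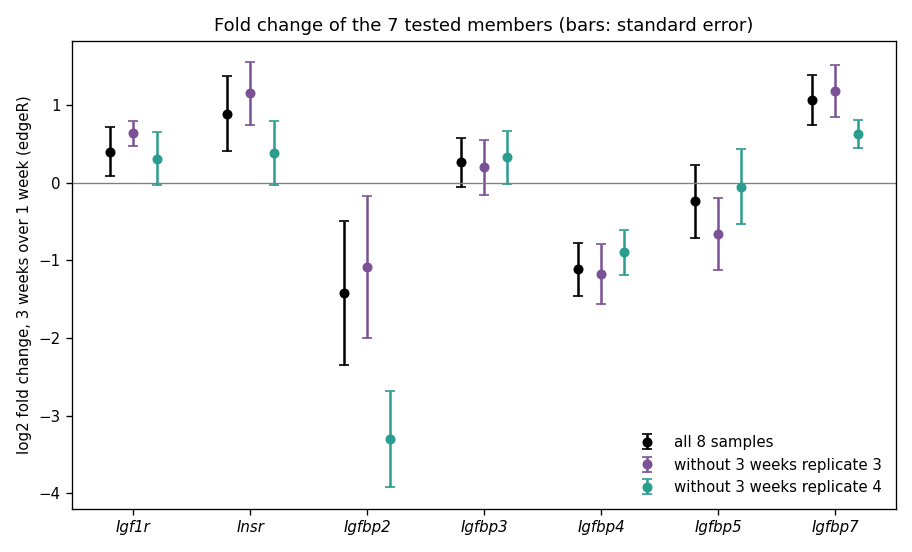
Log2 fold change (3 weeks over 1 week, edgeR) of the 7 tested members, with all 8 samples and without 3 weeks replicate 3 or replicate 4; bars are standard errors. Igfbp2 moves from -1.42 to -3.30 and Igfbp7 from 1.06 to 0.62 when replicate 4 is left out, and the standard error of Igf1r narrows when replicate 3 is left out.

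At 1 week the order of the mean RPKM was Igfbp7, Igfbp3, Igfbp2, Igf1r, Igfbp4, Insr, Igfbp6, Igfbp5 and Igf1. The ranges of Igfbp3 and Igfbp2, of Insr and Igfbp6, and of Igfbp6 and Igfbp5 overlapped across samples, although Igfbp3 was above Igfbp2 within each of the 4 samples and the other pairs kept their order in 3 of 4. At 3 weeks Insr stood above Igfbp4, and the ranges of Igfbp2 and Igf1r, Igf1r and Insr, Insr and Igfbp4, and Igfbp6 and Igfbp5 overlapped. Within samples Igf1r was above Insr in 4 of 4, Igfbp6 above Igfbp5 in 3, Insr above Igfbp4 in 2 and Igfbp2 above Igf1r in 1. The lead of Igfbp7 over Igfbp3 was 3.86-fold in mean RPKM at 1 week and 6.82-fold at 3 weeks.

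The 6 measured IGFBP genes together reached 114, 181, 177 and 193 RPKM in 1 week replicates 1 to 4 and 199, 216, 177 and 459 RPKM in 3 weeks replicates 1 to 4. Igfbp7 made up 72.0 ± 10.9% of this sum at 1 week and 83.7 ± 4.14% at 3 weeks (SD, n = 4). The share of Igfbp3 was 18.3 ± 7.36% and 14.5 ± 5.37%, and that of Igfbp2 was 8.41 ± 4.83% and 1.37 ± 1.45%. Without 3 weeks replicate 4 the latter was 0.648%, and with it the Igfbp2 shares overlapped, from 3.37% upwards at 1 week and up to 3.52% at 3 weeks. Igfbp4 held 0.891 ± 0.321% and 0.271 ± 0.150%. The shares of Igfbp7 overlapped between the times, from 62.6 to 85.8% and from 80.8 to 89.8%. Those of Igfbp4 did not, from 0.509 to 1.29% and from 0.0672 to 0.421%. Nor did those of Igfbp6, from 0.142 to 0.331% and from 0.0267 to 0.124%, which rested on few reads. These shares are free of the scaling between samples but not of the shift with exon length in 3 weeks replicates 3 and 4. They are given as a description, since a rise of Igfbp7 alone lowers the share of every other gene.

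**Figure D3:**
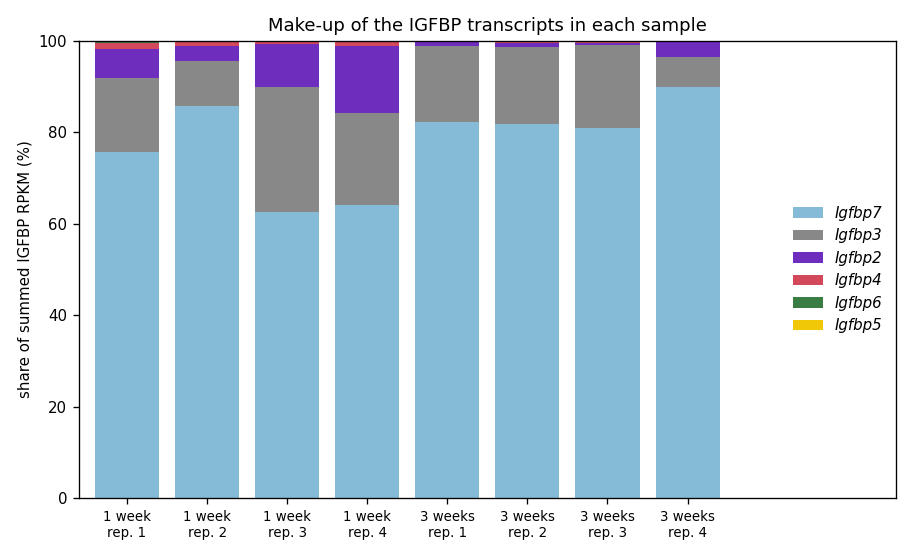
Share (%) of each of the 6 IGFBP genes in their summed RPKM, as 1 stacked bar per sample that starts at 0. Igfbp7 takes 62.6 to 85.8% at 1 week and 80.8 to 89.8% at 3 weeks, and the Igfbp2 segment has a mean of 8.41% at 1 week and 1.37% at 3 weeks.

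A number in the names of the deposited files occurs at both times for 3 pairs of samples: 46 (replicate 1 at both times), 49 (1 week replicate 3 and 3 weeks replicate 2) and 90 (replicate 4 at both times). For 49 this pairing differs from that by replicate number, and what the number marks is not stated. Between samples that share it, the RPKM ratio of 3 weeks to 1 week for Igfbp7 was 1.89, 1.60 and 3.34. For Igfbp4 it was 0.362, 1.01 and 0.186, so the samples numbered 49 showed no fall. Igfbp2 was lower in each, at ratios of 0.219, 0.0999 and 0.572, and Igfbp3 was 1.78, 0.755 and 0.770. Igf1r was higher in each, at 2.09, 1.08 and 1.34, and Insr likewise, at 3.58, 1.03 and 2.72. In edgeR on these 6 samples alone, with the shared number as a block, Igfbp4 did not pass (log2 fold change -1.19, adjusted p = 0.124), Igfbp2 passed (-1.97, adjusted p = 0.0298) and Igfbp7 passed (1.19, adjusted p = 0.0200). Igf1r (0.61, adjusted p = 0.0891) and Insr (1.19, adjusted p = 0.0614) did not pass.

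Only Igfbp7 passed the test with a mean of at least 10 CPM, so likeness of pattern was described for it. Over the 8 samples and 8575 genes with at least 10 CPM, the log2 CPM of Atrnl1 (Pearson r = 0.985), Hdac6 (0.981) and Ppfia3 (0.967) followed it most closely. Each of the 3 was highest in 3 weeks replicate 4 as Igfbp7 was, but their log2 fold changes were smaller, at 0.54, 0.51 and 0.57. The points share the libraries and their scaling.

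Beyond the members, 37 genes of the IGF pathway were examined, from ligands and IGFBP proteases to the intracellular cascade. Of the 29 that were tested, 7 rose and 1 fell, which is 27.6% against 32.8% of all tested genes. Their median log2 fold change was 0.43, with 25 positive values, beside the 0.03 of all tested genes. Ins1, Ins2 and Igfbp1 had no exon read in any sample, and 3 reads of Igfbp1 would have given at most 0.137 RPKM. Igf2 had 38 exon reads at 1 week and 42 at 3 weeks, none of them uniquely placed, so its level is uncertain. For Igf2r, a receptor that takes up IGF2 for degradation, the log2 fold change was 1.12 and did not pass (standard error 0.47, adjusted p = 0.0975, edgeR). It was lowest in 3 weeks replicate 3 (6.09 RPKM) and highest in replicate 4 (37.8 RPKM), the order seen for Insr within that group.

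Among the proteases that cut IGFBPs, Pappa and Htra1 rose, and Stc2, which encodes an inhibitor of such a protease, fell. Pappa, which encodes the secreted metalloprotease PAPP-A that cuts IGFBP4, reached 0.243, 0.409, 0.411 and 0.134 RPKM in 1 week replicates 1 to 4. In 3 weeks replicates 1 to 4 it reached 2.95, 1.70, 0.861 and 1.67 RPKM, so each 3 weeks sample lay above all 1 week samples. The rise was 2.73 on the log2 scale (standard error 0.42, adjusted p = 0.00173, edgeR). Stc2 encodes stanniocalcin-2, which inhibits PAPP-A, and reached 7.50, 10.8, 1.52 and 4.69 RPKM at 1 week and 0.321, 0.353, 0.153 and 0.368 RPKM at 3 weeks. It fell by 4.21 on the log2 scale (standard error 0.58, adjusted p = 0.000985, edgeR), again without overlap. Such separation in RPKM, in either direction, was found for 37.0% of all tested genes.

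Htra1, a secreted serine protease known to cut IGFBPs among other substrates, was the most abundant of these genes, at 615, 744, 509 and 540 RPKM in 1 week replicates 1 to 4 and 1076, 941, 727 and 1646 RPKM in 3 weeks replicates 1 to 4. The groups overlapped slightly, and the log2 fold change was 1.01 (standard error 0.24, adjusted p = 0.0122, edgeR). Because 24.8% of the Htra1 reads were uniquely placed, the test was repeated on unique reads, with an adjusted p-value of 0.0112. Of the 7 listed genes of IGFBP carriage and cleavage these were the 3 with enough reads for the test, too few to set against the 32.8% of all tested genes that passed, while Igfals, Pappa2 and Stc1 had between 4 and 10 exon reads per group. The changes of Pappa, Stc2 and Htra1 passed the threshold with each sample left out in turn.

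**Figure D4:**
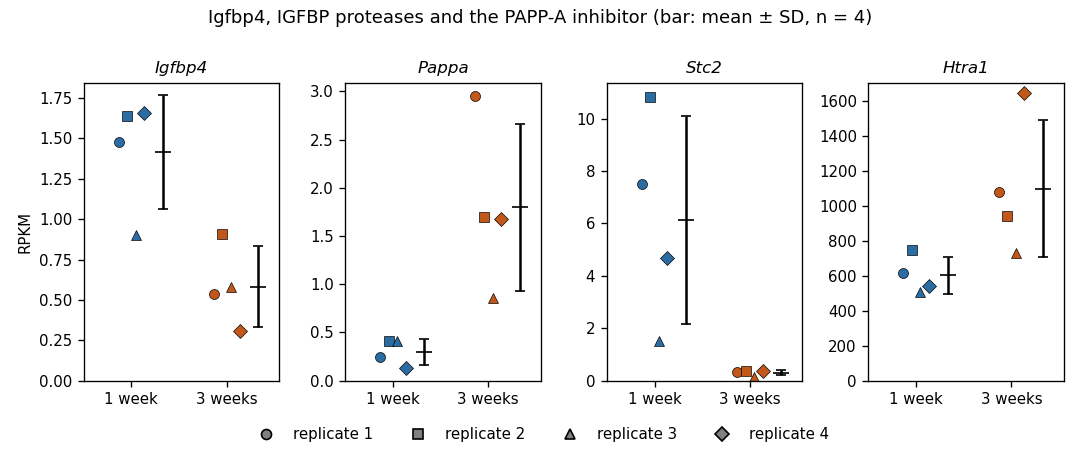
RPKM of Igfbp4, of the IGFBP proteases Pappa and Htra1 and of the PAPP-A inhibitor Stc2 in each sample, on linear axes from 0 with 1 scale per panel and the mean ± SD of each group (n = 4). Pappa is separated upwards (0.134 to 0.411 against 0.861 to 2.95 RPKM) and Stc2 downwards (1.52 to 10.8 against 0.153 to 0.368 RPKM). Of all tested genes, 37.0% were separated in RPKM in either direction.

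Among the adaptors that couple the receptors to signalling (Irs1, Irs2, Grb10, Grb14, Shc1), none of 5 passed in edgeR, too few genes to set against the 32.8%. Their log2 fold changes ran from -0.84 to 0.62 and their adjusted p-values from 0.0878 to 0.434. Of 8 genes of the PI3K and AKT step, 3 rose and none fell, which is 37.5% against 32.8% of all tested genes in either direction and 15.7% in the rising one. The catalytic subunits Pik3cb and Pik3ca rose by 0.85 (adjusted p = 0.00327) and 0.63 (adjusted p = 0.00819) on the log2 scale, and the regulatory subunit Pik3r2 by 0.76 (adjusted p = 0.0107). In limma on log2(RPKM + 0.1) Pik3ca did not pass (adjusted p = 0.0627).

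Of 8 genes downstream of AKT, 1 passed, which is 12.5% against 32.8% of all tested genes. This was Foxo4, a transcription factor that AKT holds out of the nucleus. It rose by 0.74 on the log2 scale (adjusted p = 0.0127, edgeR, and 0.0544 without 1 week replicate 1). The other 7, among them Mtor, Rheb, Foxo1 and Foxo3, did not pass. Of the 3 IGF2 mRNA-binding proteins, too few to set against that share, Igf2bp3 rose by 2.16 on the log2 scale (standard error 0.39, adjusted p = 0.00340, edgeR). Its means were 0.118 ± 0.0476 RPKM at 1 week and 0.476 ± 0.179 RPKM at 3 weeks. It overlaps Malsu1 on the opposite strand, a gene with many more reads, and no source used here says whether reads were counted by strand. Igfbp7 overlaps Polr2b on the opposite strand by 85 bases, and the antisense genes Igf1os and Gm16180 at Igf1 and Insr had no reads. Over its whole length Htra1 overlaps Fgfr2 on the opposite strand, whose exon reads were 0.926% of those of Htra1.

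**Figure D5:**
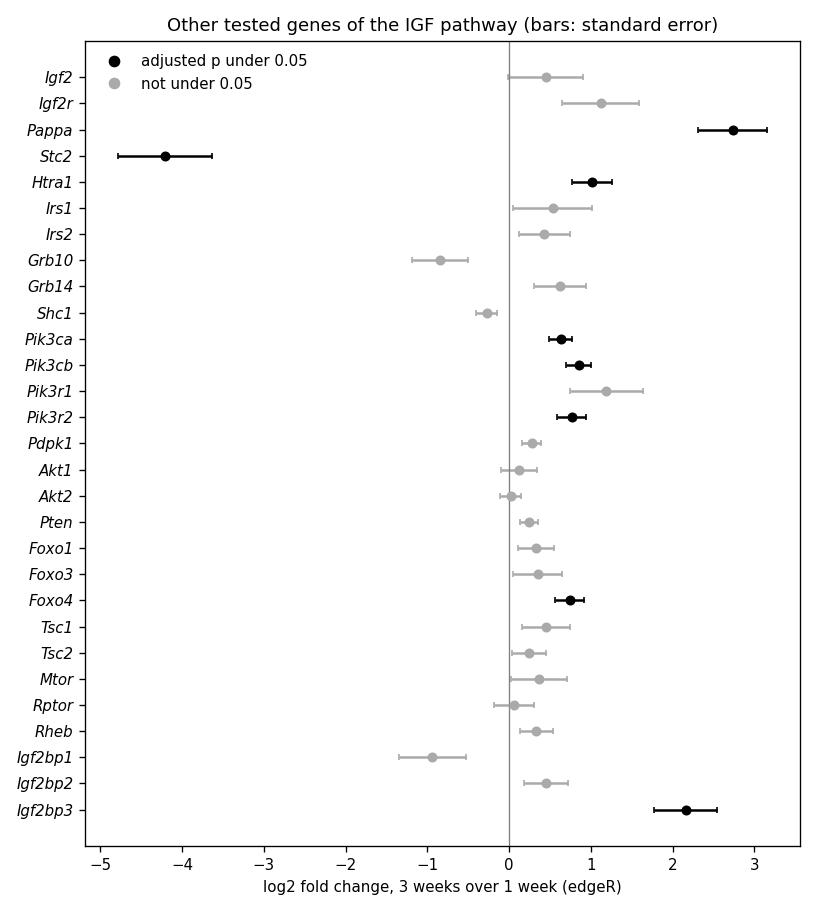
Log2 fold change (3 weeks over 1 week, edgeR) with standard error of the 29 tested genes of the pathway list other than the members; black points passed an adjusted p-value of 0.05 and grey points did not. Stc2 at -4.21 and Pappa at 2.73 lie farthest from 0, and 25 of the 29 values are positive.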

How the data were processed

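Poly(A) RNA of 8 KC samples was sequenced, and 1 gene table per sample was used. The authors aligned single reads of 59 bases to GRCm38 with the CLC Genomics Workbench at default settings and deposited whole-number counts of exon, intron and unique reads per gene, without normalization. The deposited RPKM values, with commas for decimal points, were converted to numbers. The strand setting and annotation release are not given in the sources used here.

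Exon reads of all genes entered edgeR 4.0.16 under R 4.3.3 (filterByExpr, TMM, glmQLFit, glmQLFTest, Benjamini-Hochberg adjustment, threshold 0.05), without pairing: the study names unpaired tests in general, not for sequencing, and no source used here says which samples share a batch. The 2 members with few reads were examined by exact permutation of 70 arrangements. Python 3.11.15, pandas 2.3.3, scipy 1.17.1 and matplotlib 3.10.9 served for the rest. The procedure was run on simulated counts, drawn independently for each sample. They held no shared batches and no shift with exon length, so the run does not speak to either. The smallest chi-square per degree of freedom between replicates of a group was 15.5, above counting error, so each was counted once. This does not show that the replicates were independent batches.

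Members, gene lists and tests were chosen with earlier results of these data known. All members and each pathway gene with an adjusted p-value under 0.05 could be named, as could the 3 genes most like a called member whose mean reached 10 CPM, and others where a pair or complex needed them. Of the pathway list, 1 gene is not reported here. Alternatives were DESeq2 1.42.0, upper-quartile normalization, other filters, unique or gene reads, limma 3.58.1 on log2(RPKM + 0.1 or 1), blocks and each sample left out. The exon length correction and the omission of 2 samples were chosen after seeing the data.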

Additional observations from a re-analysis of the deposited data

Results flagged for a closer look

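Dixon's test at the 95% level was applied to 36 groups of 4 samples, of which chance alone flags about 1 in 20, and it singled out 3 values, in 2 samples, that lay far from the others of their group. Igfbp2 was at 16.2 RPKM in 3 weeks replicate 4, with the other 3 samples at 1.65 RPKM or less. Igfbp7 was at 412 RPKM in the same sample, with the others at 177 RPKM or less. The ratio of Igf1r to Insr was 12.3 in 1 week replicate 1, where Insr had 63 exon reads, the fewest of its group, and the other ratios lay between 6.01 and 6.40.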

How the results depend on the processing

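No result reversed its direction under any alternative run. The count of members that rose, 1 with all samples, was 0 in limma on log2(RPKM + 0.1) and on log2(RPKM + 1), 2 with 3 weeks replicates 3 and 4 both left out (Igf1r and Igfbp7), and 0 to 2 when single samples were omitted. The count of members that fell was 0 to 2 when single samples were omitted. The count of pathway genes that fell was 2 in both limma fits and 1 to 2 when single samples were omitted, with 2 without 1 week replicate 3. The number of all genes that rose was 1313 and 1281 in the limma fits, 1309 with the replicate number as a block and 1316 with the number shared by file names as a block. Over 20 alternatives the log2 fold change of Igfbp7 was at least 0.62 and passed in 15, and that of Igfbp4 lay between -1.38 and -0.61 and passed in 13. Igfbp2 passed in 4, Igf1r in 2, and Insr and Igfbp3 in 0, and Pappa, Stc2 and Htra1 passed in all 20, Pik3ca in 18 and Foxo4 in 16.

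Deviations of same-numbered replicates from their group means correlated at -0.23, -0.15, -0.15 and 0.25. Those of samples that share a number in their file names correlated at -0.23, 0.20 and 0.25. The deviations also moved with exon length. Between long and short genes their median differed by -0.42 (log2) in 1 week replicate 1 and 0.42 in 3 weeks replicate 1. The correlations therefore cannot show whether either numbering pairs the samples. The study names shared batches, and the main fit left pairing out. With the replicate block Igfbp4 had an adjusted p-value of 0.0663 and the log2 value of Igfbp2 was -2.09 (adjusted p = 0.0338, edgeR). Depth limits Igf1, Igfbp5 and Igfbp6 most, with 10 to 97 exon reads per group.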
